A study of Mus musculus with 12 samples.

Results

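The effect of losing the (pro)renin receptor was compared between cultured mouse neurospheres and whole embryonic brain, by subtracting the knockout effect in brain from that in neurospheres for each gene. All 12 RNA-seq libraries entered, in 4 groups of 3, and 14415 of the 25655 listed genes passed the filter on low counts and were tested. CKO neurospheres carry the genotype label (P)RR_CKO and a title with fy/cre, and control neurospheres the genotype label Wildtype and a title with fy/-. CKO brains and control brains carry the same pairs of labels. Neurospheres, free-floating balls of cultured neural stem cells and their progeny, came from forebrain at embryonic day 16, and the brains were whole brains at embryonic day 15, so the tissues differ in region, day and culture as well. Every library is labelled male and C57BL/6J. The series title places the deletion in neural stem cells. No source used here gives the promoter that drives Cre, the part of the gene deleted or the time in culture. Nothing in the labels says whether libraries came from different animals or cultures, so the p-values measure only the spread between these libraries.

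The (pro)renin receptor is encoded by Atp6ap2. It binds renin and prorenin, is an accessory protein of the V-ATPase, the proton pump that acidifies lysosomes and other vesicles, and takes part in Wnt signalling at the cell surface. Neural stem cells and radial glia give rise to neurons and then to glia in the embryonic brain. ATF4 is a transcription factor made when translation is slowed by amino acid shortage or by stress in the endoplasmic reticulum, and it switches on genes of amino acid uptake and synthesis. A positive difference below means that the log2 fold change of CKO over control was higher in neurospheres than in brain, and a negative one that it was lower.

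Neurosphere libraries held 12382975 to 18636787 exon reads and brain libraries 5669338 to 6675874. Intronic reads took 7.64 to 14.1% of all gene reads in neurospheres and 63.8 to 65.5% in brain. The summed level of 22 markers of radial glia and neural stem cells was 13125 to 14077 CPM (normalised exon read counts, scaled by TMM factors to library size) in CKO neurospheres and 12227 to 16320 in control neurospheres. In brain it was 2707 to 3094 in CKO and 3061 to 3332 in control. Astrocyte markers summed to 2405 to 4310 CPM in CKO neurospheres and 5182 to 12455 in control neurospheres, against 776 to 898 in CKO brains and 834 to 945 in control brains. Oligodendrocyte lineage markers summed to 2266 to 2477 CPM in CKO neurospheres and 2842 to 6124 in control neurospheres, against 281 to 379 in CKO brains and 328 to 410 in control brains. Neurospheres thus exceeded brains in glial markers as well as in those of stem cells. Pan-neuronal markers summed to 3496 to 4558 CPM in CKO neurospheres and 4964 to 6040.4 in control neurospheres, against 11141 to 12615 in CKO brains and 12633 to 13963 in control brains. Control neurosphere 1 stood apart from its group. It held 1 read over 4 Y-linked genes where every other library held 1453 to 2992, although it is labelled male, and on the first principal component of the neurosphere libraries it lay at -6.47, between the CKO libraries at 36.7 to 47.5 and the other controls at -62.7 and -53.5. Many results that rest on it are given with and without it.

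The knockout effect differed between the tissues for 1913 genes, 13.3% of those tested (31.3% at an unadjusted p under 0.05), with 1040 higher (7.21%) and 873 lower (6.06%) in neurospheres than in brain (edgeR quasi-likelihood test, adjusted p below 0.05). Nearly all of these genes had changed in neurospheres: 1872 of the 1913 were also called for the neurosphere effect alone, which called 5748 genes (39.9% of those tested, and 49.3% at an unadjusted p), and 1 was also called for the brain effect alone, which called 1 gene (0.00694%, and 3.63% at an unadjusted p). These counts use 1 estimate of spread shared by both tissues. In the fit of the 6 neurosphere libraries alone, 1958 genes were called higher (14.7% of 13316) and 1595 lower (12%). That of the 6 brain libraries alone called 33 higher and 27 lower. Among genes whose difference was higher, the median effect was 0.73 in neurospheres and 0.01 in brain, and among those whose difference was lower it was -0.89 and -0.01. The brain effect was the larger in size for 38 of the 1913 genes. In 64 genes the effects ran in opposite directions with an unadjusted p under 0.05 in each tissue, and in 27 they ran in the same direction at that level. The size of the difference exceeded 1 log2 unit, a 2-fold change, in 636 genes. The totals changed with the libraries used. Without control neurosphere 1, 1877 genes were higher and 2126 lower, and without CKO brain 3, 477 and 369. A list's count in a fit without 1 library, as given below, also moves with these totals. Its change need not be particular to that list.

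**Figure D1:**
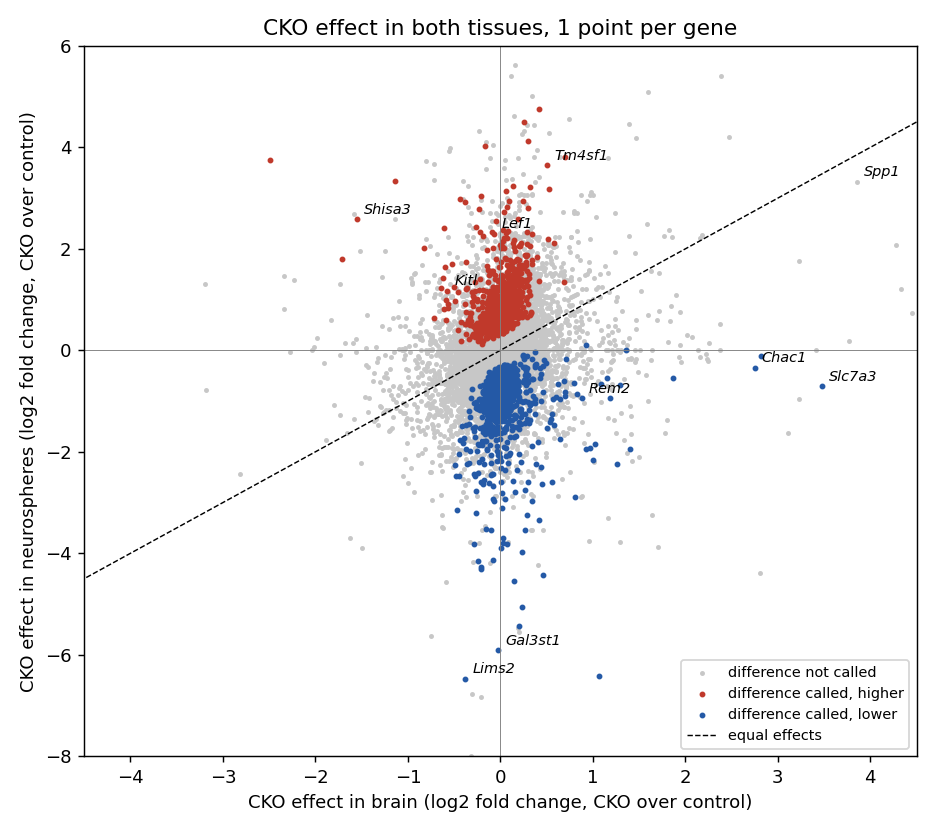
The knockout effect in neurospheres (vertical axis, log2 fold change of CKO over control) is plotted against that in brain (horizontal axis) for each tested gene; 15 genes lie outside the axes. Called differences (red higher, blue lower) lie mostly along the vertical axis, where the brain effect is near 0, while Slc7a3 and Chac1 stand far to the right and Spp1 near the dashed line of equal effects.

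Over all 14415 genes the median size of the effect was 0.39 in neurospheres and 0.11 in brain, with median standard errors of 0.16 and 0.17. The effects correlated weakly across genes (Pearson r 0.149, Spearman rho 0.270), as a description, since genes of 1 library share its depth and composition and are not independent. Effects had the same sign in 60.7% of all genes tested. In the fits of each tissue's 6 libraries alone, 33 genes were higher (0.243% of 13557) and 27 lower (0.199%) in CKO brains. Of those 33 genes, 22 had the same sign in neurospheres and 18 were called there in the same direction, and of those 27 genes, 26 had the same sign and 17 were called. Over all genes 20.4% were called higher and 19.5% lower in neurospheres in the fit of all libraries. The difference itself was called for 8 of the 33 and 2 of the 27, against 13.3% of all genes. The common biological coefficient of variation was 0.225 in neurospheres and 0.0997 in brain when fitted apart, and 0.178 in the shared fit. The shared value lies below that of neurospheres and above that of brain. Standard errors from the shared fit therefore do not measure each tissue's own spread, and their near equality does not show equal precision.

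Atp6ap2 was lower in CKO neurospheres than in control neurospheres, and its change differed between the tissues. Its level was 65.7, 51.3 and 56.8 CPM in CKO neurospheres and 101, 102 and 101 CPM in control neurospheres, with 56.8, 64.3 and 61.3 CPM in CKO brains and 61.6, 63.9 and 73.9 CPM in control brains. The neurosphere groups did not overlap and the brain groups did. The effect was -0.81 ± 0.10 in neurospheres (SE, n = 3 per group; edgeR adjusted p = 0.000262) and -0.13 ± 0.10 in brain (unadjusted p = 0.240). Their difference was -0.68 ± 0.15 (95% interval -0.999 to -0.36; edgeR adjusted p = 0.0155), and it was called in each of the 12 fits that left out 1 library. Counts cover the whole gene, including any exons that remain after deletion. In brain RNA, fewer cells with the deletion and a smaller loss per cell cannot be told apart.

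Known targets of ATF4 lay higher in CKO brains than in control brains, while in neurospheres they were spread around 0. Of 30 tested members, 9 had a lower and 2 a higher difference, against 6.06% and 7.21% of all genes. The list's median effect was -0.02 in neurospheres and 0.54 in brain, and its median difference was -0.66, against -0.02 over all genes. In brain 28 of the 30 had positive values, and 16 were higher at an unadjusted p (2.08% of all genes were). After adjustment edgeR called 1, Slc7a3, and DESeq2 10. In neurospheres 6 were higher and 2 lower (20.4% and 19.5% of all genes). The number with a lower difference was 14 without control neurosphere 1. It was 5 without CKO brain 1, control brain 3 or control neurosphere 2, 4 without control brain 1 or control neurosphere 3, and 3 without CKO brain 3. The number with a higher difference was 0 without CKO brain 2, control brain 3, CKO neurosphere 2 or control neurosphere 2, and 1 without CKO brain 3 or control brain 1 or 2. The summed level of 19 microglia and macrophage markers was 153 to 193 CPM in CKO brains and 105 to 130 in control brains. That of 20 cortical projection neuron markers was 2880.4 to 3579.9 CPM in CKO brains and 4016 to 4215 in control brains, with 7 of 20 lower at an unadjusted p (1.55% of all genes were) and a median brain effect of -0.37. The part of either in these brain values was not tested. All gene lists were chosen with earlier results of these data known, so these counts describe the list and are not a test of it. Slc7a3, which carries arginine and lysine into cells, was placed in this list with its brain change already known.

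Slc7a3 was the 1 gene that edgeR called for the brain effect in the fit of all libraries. Its level was 10.1, 7.03 and 7.47 CPM in CKO neurospheres and 8.89, 15.1 and 16.2 CPM in control neurospheres, and 9.49, 11.3 and 10.5 CPM in CKO brains against 1.01, 1.52 and 0.297 CPM in control brains. All CKO brains lay above all control brains, while the neurosphere groups overlapped at control neurosphere 1. The difference was -4.19 ± 0.51 (edgeR adjusted p = 0.00275), made of -0.71 ± 0.30 in neurospheres (adjusted p = 0.0788) and 3.48 ± 0.41 in brain (edgeR adjusted p = 0.0427). Chac1, which breaks down glutathione, had 4.47, 5.75 and 3.90 CPM in CKO neurospheres and 4.33, 6.32 and 7.31 CPM in control neurospheres, with 10.5, 7.17 and 12.3 CPM in CKO brains and 1.30, 0.846 and 2.23 CPM in control brains. Its brain groups were apart and its neurosphere groups overlapped, and the difference was -3.09 ± 0.48 (edgeR adjusted p = 0.00497).

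Ddit3, which encodes the stress transcription factor CHOP and is listed as Ddit3_1, had effects of opposite sign. Its level was 9.90, 11.5 and 15.8 CPM in CKO neurospheres and 18.5, 19.2 and 19.97 CPM in control neurospheres, against 8.53, 9.31 and 9.86 CPM in CKO brains and 4.62, 5.07 and 6.24 CPM in control brains. Every CKO neurosphere lay below every control neurosphere, and every CKO brain above every control brain. The difference was -1.43 ± 0.27 (edgeR adjusted p = 0.00952). The calls for Slc7a3, Chac1 and Ddit3 held in each of the 12 fits without 1 library, and without control neurosphere 1 their differences were -4.47, -3.33 and -1.52. Slc3a2, the heavy chain shared by several amino acid transporters, had a difference of -0.41 ± 0.09 (edgeR adjusted p = 0.0181), and with CKO brain 3 left out its adjusted p was 0.0512.

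**Figure D2:**
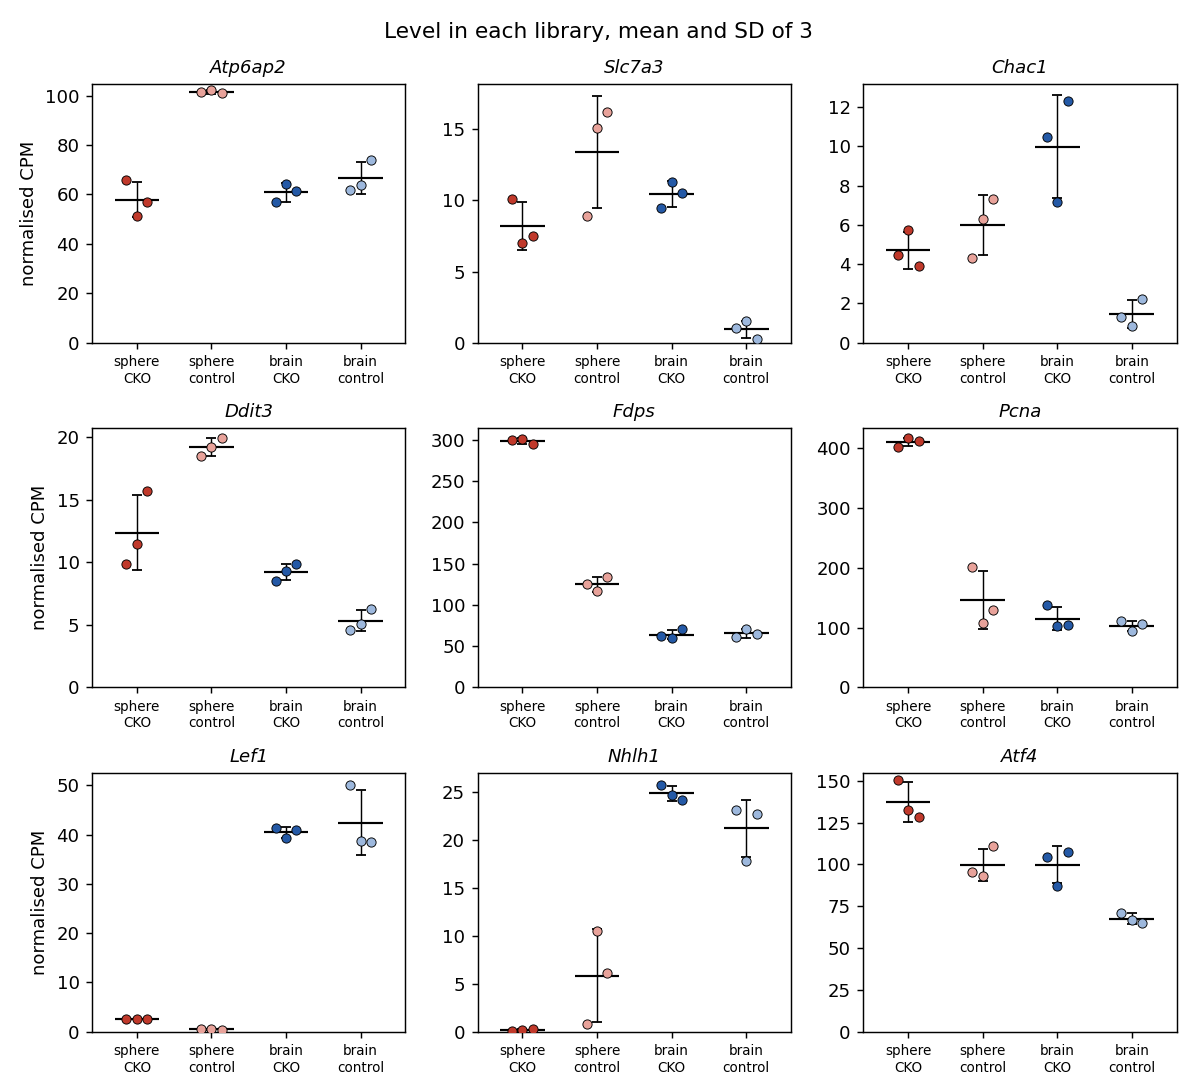
Normalised CPM of 9 genes in each library (points), with the mean (bar) and SD (whiskers) of 3 libraries, in CKO and control neurospheres and in CKO and control brains. Slc7a3, Chac1 and Ddit3 are higher in CKO than in control brains, Fdps, Pcna and Lef1 are higher in CKO than in control neurospheres, Nhlh1 and Atp6ap2 are lower there, and Atf4 is higher in both tissues.

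Asns, asparagine synthetase, had 81.9, 109.8 and 104 CPM in CKO neurospheres and 77.9, 94.5 and 104 CPM in control neurospheres, against 52.3, 41.2 and 45.2 CPM in CKO brains and 21.5, 27.2 and 24.1 CPM in control brains. Only the brain groups were apart, and the difference was -0.83 ± 0.21 (edgeR adjusted p = 0.0278). Sesn2, which restrains mTORC1 when amino acids run short, had a difference of -1.36 ± 0.39 (edgeR adjusted p = 0.0428), with 0.00 in neurospheres and 1.36 in brain. The pseudokinase gene Trib3 had -2.40, the endoplasmic reticulum stress gene Herpud1 -0.79 and the glycine transporter gene Slc6a9 -1.39. The pair with a higher difference was Mthfd2, a mitochondrial folate enzyme, and Slc7a1, a transporter of cationic amino acids. Mthfd2 had 1.34 in neurospheres and 0.69 in brain, a difference of 0.65 ± 0.16. Slc7a1 had 0.90 in neurospheres and 0.16 in brain. These 7 calls held in 2 to 7 of the 12 fits without 1 library, with adjusted p-values up to 0.104 elsewhere.

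The letters TGATGNAA, a composite element that ATF4 is known to bind with a C/EBP partner, were searched on both strands in 300-base promoter windows from RefSeq on GRCm38.p6, from 250 bases before to 50 after each start site. They occurred in 8 of the 25 list members with a window (32.0%), against 2.83% of 11303 tested genes with one and 3.97% of all 32851 windows. Among the list's members with a window, 4 of 8 called with a lower difference held them, as did 4 of 15 not called. Since ATF4 targets are in part known through this element, the share is a description of the list. The stretches below show the letters or their reverse complement, in capitals, in 3 members called with a lower difference.
Chac1, chr2:119350993-119351112, plus strand: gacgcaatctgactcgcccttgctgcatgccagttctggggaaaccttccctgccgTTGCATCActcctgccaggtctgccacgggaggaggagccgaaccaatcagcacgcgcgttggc
Asns, chr6:7693210-7693329, minus strand: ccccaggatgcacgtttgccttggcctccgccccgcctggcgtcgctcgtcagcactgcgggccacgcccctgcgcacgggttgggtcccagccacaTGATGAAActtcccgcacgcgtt
Herpud1, chr8:94386261-94386380, plus strand: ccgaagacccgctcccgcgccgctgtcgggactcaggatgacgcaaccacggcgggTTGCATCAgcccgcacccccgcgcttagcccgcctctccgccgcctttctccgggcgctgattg

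Atf4 itself rose in neurospheres and had a brain value of the same size. Its level was 151, 133 and 128 CPM in CKO neurospheres and 95.6, 93.03 and 111 CPM in control neurospheres, with 104, 87.1 and 108 CPM in CKO brains and 71.02, 66.8 and 64.97 CPM in control brains. In each tissue every CKO library lay above every control. The effects were 0.46 ± 0.10 (edgeR adjusted p = 0.00483) and 0.56 ± 0.11 (unadjusted p = 0.000218), and their difference was -0.10, with a 95% interval of -0.42 to 0.22.

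Among the 10 genes named for opposite effects, the groups did not overlap in either tissue except for Slc7a3. These 10 genes were chosen by low p-values in each tissue and for the difference. That choice by itself favours groups apart and calls that hold without 1 library. In 6 the neurosphere effect was positive and the brain effect negative. Kitl, the ligand of the receptor kinase Kit, had 306, 283 and 261 CPM in CKO neurospheres and 162, 111 and 104 CPM in control neurospheres, against 74.5, 60.3 and 81.1 CPM in CKO brains and 87.8, 122 and 112 CPM in control brains, a difference of 1.75 ± 0.25 (edgeR adjusted p = 0.00443). Shisa3, a transmembrane protein of the Shisa family, had 12.6, 17.2 and 9.99 CPM in CKO neurospheres and 4.08, 0.853 and 1.66 CPM in control neurospheres, against 6.92, 10.1 and 5.92 CPM in CKO brains and 21.4, 22.7 and 23.5 CPM in control brains, a difference of 4.14 ± 0.58 (edgeR adjusted p = 0.00440). For both genes every CKO neurosphere lay above every control neurosphere, and every CKO brain below every control brain.

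Smaller differences of the same kind were seen for Ssx2ip, a centrosomal and adhesion protein (1.07 ± 0.14), Tomm5, a subunit of the mitochondrial import pore (1.05 ± 0.16), Gpd2, the mitochondrial glycerol-3-phosphate dehydrogenase (0.85 ± 0.11), and Trak2, an adaptor that couples mitochondria to motors (0.76 ± 0.11). The opposite arrangement held for Rem2, a GTPase of neurons, which had 1.54, 1.34 and 1.95 CPM in CKO neurospheres and 3.52, 2.56 and 3.17 CPM in control neurospheres, against 20.1, 17.2 and 19.2 CPM in CKO brains and 9.82, 10.8 and 10.1 CPM in control brains, a difference of -1.83 ± 0.27. It also held for Hrk, a BH3-only cell death gene (-1.52 ± 0.22), and Atg13, a subunit of the kinase complex that starts autophagy (-0.80 ± 0.12). The edgeR adjusted p-values of these 7 genes were 0.00282 to 0.00463, and every one of the 10 genes was called in each of the 12 fits without 1 library.

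Of the 10 genes named for a larger effect in brain, 4 were the ATF4 list members Slc7a3, Chac1, Ddit3 and Slc3a2. Mon2, a protein of transport between endosomes and the Golgi, had 113, 113 and 111 CPM in CKO neurospheres and 122, 124 and 118 CPM in control neurospheres, against 182, 174 and 178 CPM in CKO brains and 146, 147 and 145 CPM in control brains, a difference of -0.40 ± 0.08 (edgeR adjusted p = 0.0130). Its groups were apart in each tissue, with CKO below control among neurospheres and above it among brains. Nckap1l, a subunit of the actin-regulating WAVE complex in blood cells and microglia, had at most 0.721 CPM in any neurosphere library, and 6.11, 8.39 and 9.21 CPM in CKO brains against 3.90, 3.55 and 2.97 CPM in control brains. Its difference was -2.12 ± 0.45 (edgeR adjusted p = 0.0155). Vwf, the endothelial clotting factor, had a difference of -1.29 ± 0.30, with -0.61 in neurospheres and 0.68 in brain. Fkbpl, an Hsp90 co-chaperone (1.35 ± 0.29), Dpy19l1, a C-mannosyltransferase (0.61 ± 0.14), and Nin, which anchors microtubules at the centrosome (0.60 ± 0.14), had positive neurosphere values of 0.64, 0.18 and 0.29 and negative brain values of -0.72, -0.43 and -0.31, with groups apart in each tissue. The call ended at an edgeR adjusted p of up to 0.0513 without CKO brain 2 and without control neurosphere 2 for Vwf, at 0.0517 without control brain 1 for Dpy19l1, and at up to 0.0569 without CKO brain 2 or 3, control brain 3 or control neurosphere 3 for Nin.

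Other genes had effects of the same sign in both tissues. At an unadjusted p in each tissue, 223 genes had effects in the same direction and 67 in opposite directions, and for 168 of the 223 the difference also had an unadjusted p of at least 0.05. Srpr, the receptor that docks ribosomes at the endoplasmic reticulum, had 88.2, 82.5 and 80.8 CPM in CKO neurospheres and 56.9, 50.4 and 52.9 CPM in control neurospheres, with 64.8, 68.4 and 64.6 CPM in CKO brains and 48.4, 42.96 and 50.8 CPM in control brains. Every CKO library lay above every control in each tissue, and the difference was 0.18 (95% interval -0.09 to 0.44). Copb2, a coatomer subunit of Golgi vesicles, had 0.40 in neurospheres and 0.53 in brain (difference -0.12, interval -0.37 to 0.12). Snd1, a nuclease of RNA-protein complexes, and Morf4l2, a chromatin protein, also had positive values in both, with differences of 0.07 (-0.18 to 0.32) and 0.09 (-0.11 to 0.29).

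Bcan, a proteoglycan of glial precursors and astrocytes, had 628, 502 and 542 CPM in CKO neurospheres and 973, 1519 and 1338 CPM in control neurospheres, against 7.40, 10.7 and 14.3 CPM in CKO brains and 20.8, 26.4 and 21.9 CPM in control brains. Every CKO library lay below every control in each tissue. The difference was -0.11, with a 95% interval of -0.78 to 0.57. Genes lower in CKO brains at an unadjusted p made up 1.55% of all tested, and Bcan and the next 3 were chosen among them. Ptprz1, a receptor phosphatase of radial glia and oligodendrocyte precursors, had -0.62 in neurospheres and -0.56 in brain (difference -0.06, interval -0.44 to 0.31). Sla and Mpped1 had negative values in both, with differences of 0.06 (-0.70 to 0.81) and -0.18 (-0.94 to 0.57). Spp1, the secreted glycoprotein osteopontin, had 3.33 in neurospheres and 3.85 in brain, with a difference of -0.52 and an interval of -2.96 to 1.91 that also admits more than a 4-fold gap. Without control neurosphere 1 its difference was 0.64. An interval that includes 0 does not show equal effects.

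**Figure D3:**
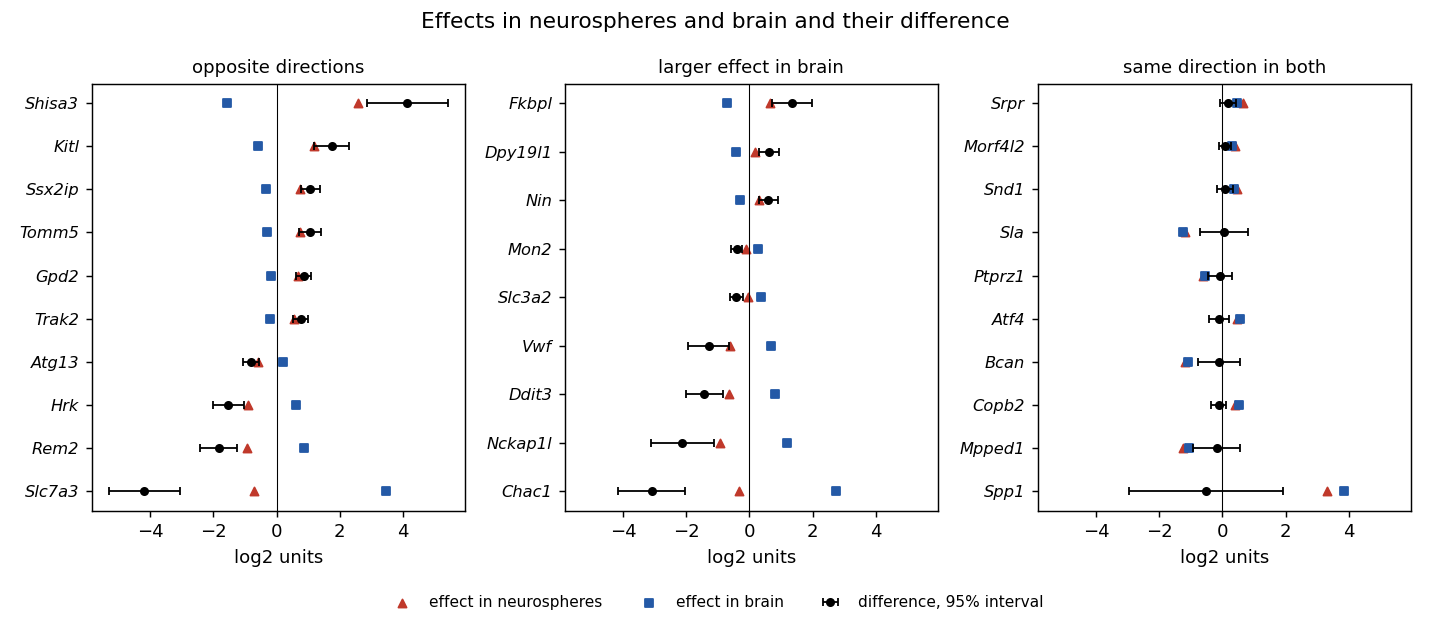
Effects in neurospheres (triangles), effects in brain (squares) and their difference with its 95% interval (circles), in log2 units, for genes named for opposite effects, for a larger effect in brain, and for the same direction in both. The intervals of the first 2 panels stay clear of 0 and those of the third include it, which the choice of genes fixed.

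Genes of the cholesterol synthesis list rose in CKO neurospheres and lay near 0 in brain. Of 25 tested genes 17 had a higher difference, against 7.21% of all genes, and the other 8 were not called. In neurospheres 22 rose (20.4% of all genes did) and the median effect was 0.96. In brain edgeR and DESeq2 each called 0, with 0 at an unadjusted p, and the median was -0.01. Both tools fitted all 12 libraries with 1 spread per gene for both tissues, so DESeq2 is not a separate check of brain. The common coefficient of variation in edgeR was 0.178 in that fit and 0.0997 in brain alone, so small brain changes could be missed. The count was 15 to 19 over the 12 fits without 1 library, and 19 without control neurosphere 1. Fdps, farnesyl diphosphate synthase, had 300.3, 301 and 295 CPM in CKO neurospheres and 125, 116 and 134 CPM in control neurospheres, with 62.1, 59.2 and 70.5 CPM in CKO brains and 60.6, 71.2 and 64.8 CPM in control brains. The neurosphere groups were more than 2-fold apart by their means and the brain groups overlapped. The difference was 1.29 ± 0.13 (edgeR adjusted p = 0.00148).

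Msmo1, a sterol demethylase, had a difference of 1.18 ± 0.15 (edgeR adjusted p = 0.00300). Fdps and Msmo1 were called in each fit without 1 library. The sterol element TCACNCCAC, searched in the same windows on both strands, occurred in 1 of 17 list members with a window (5.88%), against 1.40% of tested genes. That member is Hmgcs1, which makes HMG-CoA and had a difference of 0.73 ± 0.18 (edgeR adjusted p = 0.0252, up to 0.0757 without 1 library); the element is in capitals.
Hmgcs1, chr13:119690158-119690277, plus strand: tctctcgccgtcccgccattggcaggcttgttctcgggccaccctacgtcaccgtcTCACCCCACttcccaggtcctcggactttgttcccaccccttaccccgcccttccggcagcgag

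Cell cycle genes rose in CKO neurospheres. All 26 S phase genes and all 25 G2/M genes tested did, with medians of 1.65 and 1.43, against 20.4% of all genes. In brain edgeR and DESeq2 each called 0, with 0 at an unadjusted p, although 25 of 26 and 25 of 25 values were positive, with medians of 0.25 and 0.25. Both tools used the spread shared by both tissues, so these counts of 0 do not show that brain was unchanged. The difference was higher for 11 of the 26 and 8 of the 25, against 7.21% of all genes, and every difference was positive. Pcna, the sliding clamp of DNA polymerase, had 403, 417 and 412 CPM in CKO neurospheres and 201, 108 and 129 CPM in control neurospheres, with 138, 103 and 105 CPM in CKO brains and 110.4, 93.7 and 106 CPM in control brains. Control neurosphere 1 was the highest of its group, below every CKO neurosphere. The difference was 1.33 ± 0.28 (edgeR adjusted p = 0.0146). Tyms, thymidylate synthase (1.68 ± 0.31), Rfc2, a clamp loader subunit (0.91 ± 0.15), and Aurka, a mitotic kinase (1.61 ± 0.34), were also called in each of the 12 fits without 1 library. The S phase count was 26 without control neurosphere 1, and 3 to 7 without CKO brain 2 or 3, control brain 1 or 3, CKO neurosphere 1 or 2, or control neurosphere 2 or 3. Over all genes 1877 were higher without control neurosphere 1 and 477 to 957 in those other fits, against 1040 with all libraries. The G2/M count was 25 without control neurosphere 1, and 1 to 4 without CKO brain 2 or 3, any control brain, CKO neurosphere 2 or 3, or control neurosphere 3. DESeq2 called 20 and 17 (1303 higher over all genes), and scaling by library size alone gave 7 and 5 (705 higher over all genes).

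Glycolytic genes and Wnt targets included further genes that rose in CKO neurospheres. Of 20 hypoxia-inducible and glycolytic genes 10 rose there (20.4% of all genes did) and 5 had a higher difference (7.21% of all genes), the enzymes Eno1 (1.18 ± 0.15), Ldha (1.02 ± 0.19), Pkm (0.75), Hk2 (1.44) and Gapdh (0.64). The median was 0.56 in neurospheres and 0.04 in brain. The count was 3 without CKO brain 2 or 3, control brain 1 or 3, CKO neurosphere 2 or control neurosphere 2, and 5 or 6 without any other library. Of 14 Wnt/beta-catenin targets 6 rose in neurospheres and 4 had a higher difference, against the same shares of all genes. Lef1, a transcription factor that acts with beta-catenin, had 2.57, 2.56 and 2.52 CPM in CKO neurospheres and 0.561, 0.512 and 0.452 CPM in control neurospheres, with 41.3, 39.2 and 40.9 CPM in CKO brains and 50.1, 38.7 and 38.5 CPM in control brains. The neurosphere groups were apart at a low level and the brain groups overlapped. The difference was 2.37 ± 0.23 (edgeR adjusted p = 0.00148). Tcf7, its relative (1.47 ± 0.33), and Axin2, a feedback inhibitor of the pathway (0.81 ± 0.17), were called as well, and all 3 in each fit without 1 library. The fourth was Sp5 (2.70). Without control neurosphere 1 the count was 7, and without any other 1 library 3 to 5.

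A minority of lysosomal and autophagy genes had lower differences. Of 35 lysosomal genes 5 had a lower difference (6.06% of all genes did), and in neurospheres 7 fell and 3 rose (19.5% and 20.4% of all genes), with a median effect of -0.15 in neurospheres and 0.12 in brain. Ctsf, a lysosomal protease, had 23.8, 26.9 and 31.7 CPM in CKO neurospheres and 70.5, 96.2 and 74.998 CPM in control neurospheres, with 12.1, 19.2 and 14.3 CPM in CKO brains and 12.6, 17.4 and 14.7 CPM in control brains, a difference of -1.59 ± 0.27 (edgeR adjusted p = 0.00680). Its neurosphere groups were apart and its brain groups overlapped. The others were Npc1, a cholesterol exporter of the lysosome (-0.49), Cln3 (-0.67), Scarb2 (-0.72) and the peptidase Tpp1 (-0.63). Of 23 autophagy genes 5 had a lower difference and 10 fell in neurospheres. They were Atg13, Nbr1, Atg9a, Map1lc3b (-0.84 ± 0.20), which encodes a coat protein of autophagosomes, and the initiating kinase Ulk1 (-0.46 ± 0.10). The lysosomal count was 1 to 3 without any 1 brain library, CKO neurosphere 2 or control neurosphere 2 or 3, and 8 without CKO neurosphere 3 or control neurosphere 1. The autophagy count was 1 to 3 without CKO brain 2 or 3, any control brain, CKO neurosphere 2 or control neurosphere 2 or 3. It was 7 without control neurosphere 1. Of 17 V-ATPase subunits 1 had a lower difference, a share near the 6.06% of all genes. It was Atp6v0d1 (-0.44), which lost its call in 8 of the 12 fits without 1 library. Without control neurosphere 1 the V-ATPase count was 2.

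Endoplasmic reticulum chaperones rose in neurospheres and had positive values in brain too. Of 20 tested, 15 rose and 3 fell in neurospheres (20.4% and 19.5% of all genes), with a median of 0.55. In brain all 20 values were positive, 13 at an unadjusted p (2.08% of all genes were higher at that level), with a median of 0.24. The difference was higher for Manf (0.42), Hyou1 (0.38), Pdia3 (0.37) and Pdia6 (0.36), and lower for Ero1b (-0.88 ± 0.17), an oxidase of disulfide formation. Over all genes 7.21% had a higher and 6.06% a lower difference. Hyou1, a chaperone of the Hsp70 family, had 200.5, 194 and 177 CPM in CKO neurospheres and 124, 120.1 and 116 CPM in control neurospheres, with 172, 175 and 170.0 CPM in CKO brains and 152, 131 and 141 CPM in control brains. CKO libraries lay above control libraries in each tissue, by 0.67 ± 0.07 in neurospheres and 0.28 ± 0.07 in brain. The higher count was 0 without CKO brain 1 or 3, control brain 1 or 3, CKO neurosphere 1 or 2 or control neurosphere 2 or 3, 1 without CKO brain 2 or CKO neurosphere 3, and 0 when counts were scaled by library size alone. Without control neurosphere 1, 4 chaperones were higher and 3 lower. Of 21 aminoacyl-tRNA synthetases 14 rose in neurospheres (20.4% of all genes) and 8 were higher in brain at an unadjusted p (2.08% of all genes). A higher difference was called for 3 (7.21% of all genes), Kars (0.59 ± 0.10), Farsb (0.55 ± 0.11) and Vars (0.82 ± 0.19).

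**Figure D4:**
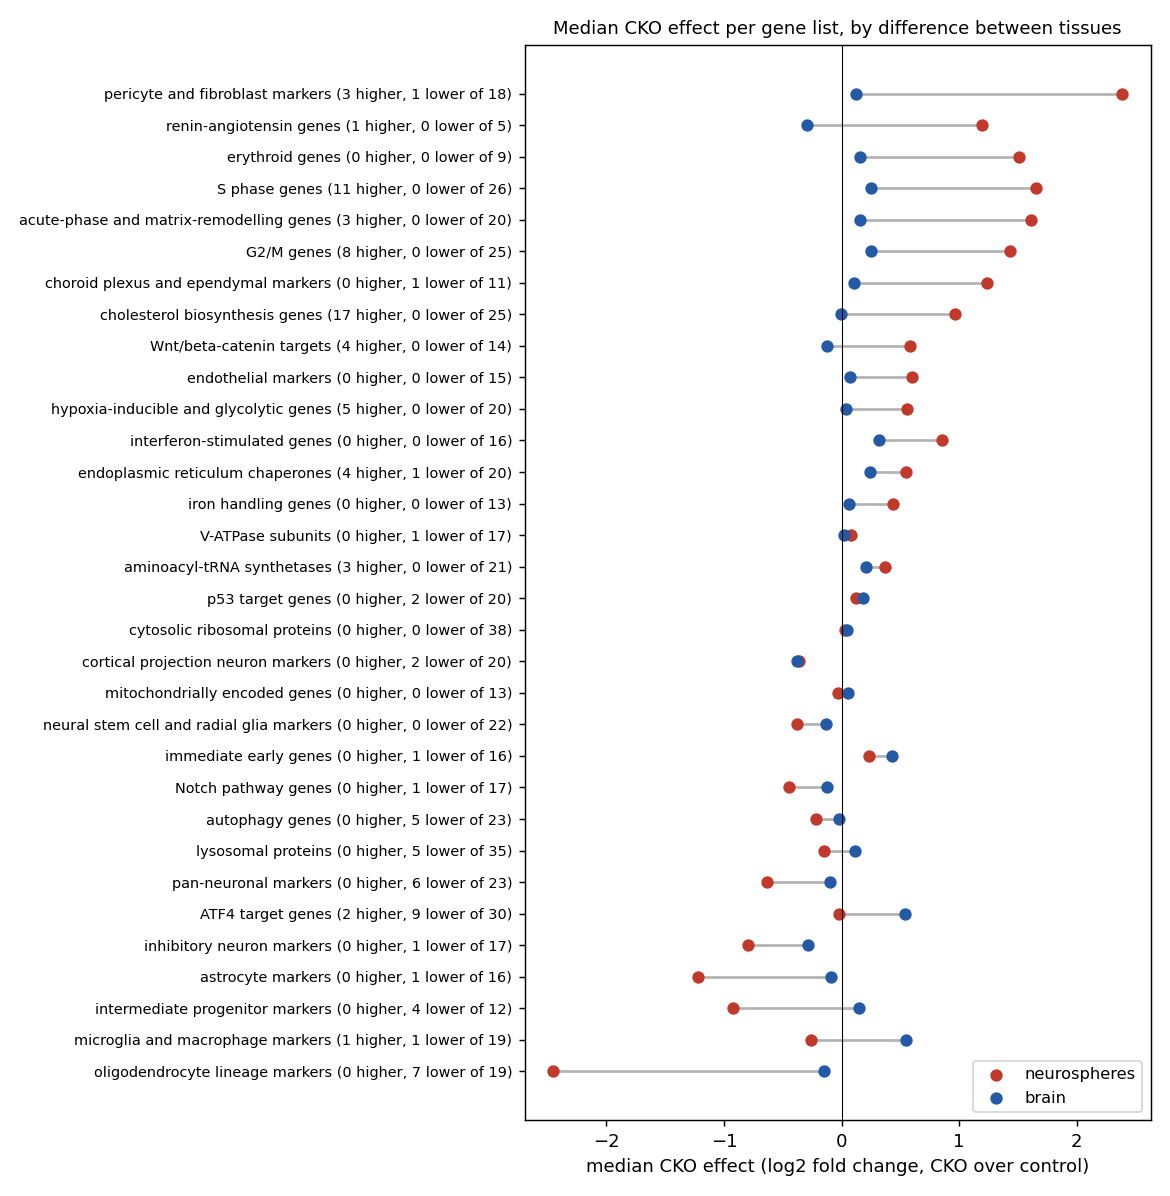
Median knockout effect of each gene list, other than the Y-linked one, in neurospheres (red) and brain (blue), as log2 fold change of CKO over control, ordered by the median difference, with the number of called differences after each name. Brain medians are farthest from 0 for microglia and macrophage markers (0.55), ATF4 targets (0.54), immediate early genes (0.43) and cortical projection neuron markers (-0.37), and the ATF4 median in neurospheres is -0.02.

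Markers of neurons, intermediate progenitors and oligodendrocytes fell in CKO neurospheres, and part of them had lower differences. In bulk RNA, fewer cells of a type and less RNA per cell cannot be told apart. Over all genes 19.5% fell in neurospheres and 6.06% had a lower difference. Of 12 intermediate progenitor markers 7 fell in neurospheres and 4 had a lower difference, with a median effect of -0.92 in neurospheres and 0.15 in brain. Nhlh1, a transcription factor of young neurons, had 0.0734, 0.174 and 0.244 CPM in CKO neurospheres and 0.801, 10.5 and 6.18 CPM in control neurospheres, with 25.7, 24.7 and 24.2 CPM in CKO brains and 23.1, 17.8 and 22.7 CPM in control brains, a difference of -5.29 ± 1.03 (edgeR adjusted p = 0.0116). In neurospheres the groups were apart in the direction opposite to that in brain. The brain effect of Nhlh1 was 0.23 ± 0.52 (edgeR unadjusted p = 0.668), so a change in brain is not shown. The proneural gene Neurog2 had -3.01 ± 0.73 and Neurod1 -1.44 ± 0.30. The count was 8 without control neurosphere 1 and 2 without CKO brain 1 or 3, control brain 2 or 3, or control neurosphere 2 or 3. Of 23 pan-neuronal markers 14 fell in neurospheres and 6 had a lower difference, among them Tubb3, neuronal tubulin (-0.88 ± 0.21), and Dcx (-1.30 ± 0.32). That count was 0 without CKO brain 2 or 3 or control brain 1 or 3, 1 to 3 without control brain 2, CKO neurosphere 2 or 3 or control neurosphere 2 or 3, and 16 without CKO neurosphere 1. It was 9 without control neurosphere 1. Dll3, a Notch ligand of newborn neurons, had -3.07 ± 0.59, and Erbb4, a neuregulin receptor of interneurons, -2.51 ± 0.36. Both were called in each fit without 1 library.

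Of 19 oligodendrocyte lineage markers 15 fell in neurospheres and 7 had a lower difference, with a median effect of -2.45 in neurospheres and -0.15 in brain. Tnr, a matrix protein of the lineage, had 29.5, 27.9 and 35.9 CPM in CKO neurospheres and 85.8, 966 and 752 CPM in control neurospheres, with 43.3, 48.5 and 61.8 CPM in CKO brains and 50.8, 70.5 and 56.6 CPM in control brains, a difference of -4.06 ± 0.88 (edgeR adjusted p = 0.0162). Control neurosphere 1 was the lowest of its group and still above every CKO neurosphere. Pdgfra, the receptor that marks oligodendrocyte precursors, had -3.83 ± 0.81 and Bcas1 -4.88 ± 1.32. Tnr and Pdgfra were called in each fit without 1 library, and Bcas1 in 1. The list's count was 2 to 4 without CKO brain 2 or 3, any control brain, CKO neurosphere 2 or control neurosphere 3, and 15 without control neurosphere 1. Astrocyte markers had a median of -1.22 in neurospheres and -0.09 in brain. Of those 16 markers 9 fell in neurospheres and 1 had a lower difference, Apoe (-3.14 ± 0.70), and 7 had a lower one without control neurosphere 1. Of 22 radial glia and neural stem cell markers edgeR called 0 differences, with 3 higher at an unadjusted p (16.1% of all genes). DESeq2 called 2 higher, against 1303 over all genes. Without control neurosphere 1 edgeR called 4 higher and 2 lower, against 1877 and 2126 over all genes.

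Markers of blood, immune and vessel-wall cells were low in neurospheres, apart from those of pericytes and fibroblasts. Microglia and macrophage markers summed to 42.6 to 58.5 CPM in CKO neurospheres and 57.1 to 60.4 in control neurospheres. In brain 6 of 19 were higher in CKO at an unadjusted p, against 2.08% of all genes. Of these 19 markers 1 had a higher difference, P2ry12 (1.88 ± 0.55), and 1 a lower, the complement gene C1qb (-2.87 ± 0.85), against 7.21% and 6.06% of all genes. C1qb had at most 0.427 CPM in any neurosphere library, so its neurosphere value rests on few reads. Both calls held in 1 of the 12 fits without 1 library. Without control neurosphere 1, 0 of these markers were higher and 3 lower. Erythroid genes summed to at most 3.15 CPM in neurospheres and 1190 to 2092 in brain, and edgeR and DESeq2 each called 0 of 9 differences, with 0 at an unadjusted p. Pericyte and fibroblast markers summed to 165 to 1858 CPM in CKO neurospheres and 337 to 499.9 in control neurospheres, against 954 to 2689 in CKO brains and 875 to 1819 in control brains. Of 18 markers 12 rose in neurospheres (20.4% of all genes), with a median of 2.39 there and 0.12 in brain and a median difference of 2.27. Without CKO neurosphere 3 that median difference was 1.26, and without any other 1 library it was 2.09 to 2.74. A higher difference was called for 3 of the 18 (7.21% of all genes), Rgs5 (1.15), Foxc1 (2.25) and Abcc9 (2.69). A lower one was called for 1, Pdgfra, which this list shares with the oligodendrocyte lineage. The higher count was 0 without control brain 3 or control neurosphere 3, 1 without any 1 CKO brain, control brain 2 or control neurosphere 2, and 6 without CKO neurosphere 2.

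Of the other lists, acute-phase and matrix-remodelling genes had 3 higher differences of 20 (7.21% of all genes), namely Tm4sf1 (3.14 ± 0.41), Srpx2 (3.11) and Steap4 (6.25). The count was 5 without control neurosphere 1 and 1 without CKO brain 3, control brain 3 or control neurosphere 2 or 3. Tm4sf1, a membrane protein of the tetraspanin-like family, had 9.98, 8.42 and 11.2 CPM in CKO neurospheres and 0.881, 0.768 and 0.678 CPM in control neurospheres, with 4.67, 6.10 and 5.10 CPM in CKO brains and 3.61, 5.24 and 2.38 CPM in control brains. Of 5 renin-angiotensin genes 1 had a higher difference (7.21% of all genes did), Ace (2.13 ± 0.63), which converts angiotensin I. Ace was called in 1 of the 12 fits without 1 library. Differences called lower were Sesn2 and Rrm2b (-0.63) of 20 p53 targets, Foxp2 (-1.24) and Cux2 (-1.13) of 20 cortical projection neuron markers, and Nr4a1 (-1.76) of 16 immediate early genes. They also were Erbb4 of 17 inhibitory neuron markers, Dll3 of 17 Notch genes and Enpp2 (-2.33) of 11 choroid plexus and ependymal markers. With 1 or 2 members each, these lists lie near the 6.06% of all genes called lower. Yet all 17 inhibitory neuron markers had negative differences, with a median of -0.67, and 5 were lower at an unadjusted p (15.2% of all genes). Of these 17 markers 8 fell in neurospheres (19.5% of all genes), with a median effect of -0.79 there and -0.29 in brain. Without control neurosphere 1 the p53 list had 10 higher and 2 lower, immediate early genes 3 and 2, and Notch genes 3 and 3. Inhibitory neuron markers then had 4 lower and cortical markers 3 lower. Over all genes that fit called 1877 higher and 2126 lower, against 1040 and 873 with all libraries. Without CKO neurosphere 1 inhibitory neuron markers had 9 lower and cortical markers 5 (1350 lower over all genes). The p53 list had 0 or 1 lower without any 1 other library, immediate early genes 0 without any 1 brain library or CKO neurosphere 2 or 3, and cortical markers 1 without CKO brain 2 or 3, any control brain, CKO neurosphere 2 or control neurosphere 2 or 3. The median difference of immediate early genes was -0.22 with all libraries and 0.77 without control neurosphere 1, and that of p53 targets 0.10 and 0.53. Without control neurosphere 2 or 3 the p53 median was -0.22. The endothelial, iron, mitochondrially encoded, ribosomal, interferon and Y-linked lists had 0 called differences by edgeR. DESeq2 called 2 endothelial genes and 1 iron gene higher and 1 mitochondrially encoded gene lower. Over all genes it called 1303 higher and 1413 lower. At an unadjusted p in edgeR 3 of 15 endothelial, 3 of 13 iron and 1 of 38 ribosomal genes were higher (16.1% of all genes). At that level 2 of 13 mitochondrially encoded genes were lower (15.2% of all genes). Without control neurosphere 1 edgeR called 4 endothelial genes higher and 2 lower, 3 iron genes higher and 1 lower, 3 mitochondrially encoded genes lower and 2 Y-linked genes lower.

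Among genes at a mean of 1 CPM or more in each tissue, the 10 largest differences included 7 not yet named, with neurosphere effects of 2.03 to 3.24. They were Mmp19, a matrix metalloproteinase (3.25 ± 0.91), Stx11, a syntaxin (3.11 ± 0.67), Il1r1, the interleukin-1 receptor (3.09 ± 0.92), the transcription factor gene Tbx2 (3.02 ± 0.83), the surface glycoprotein gene Cd34 (2.90 ± 0.68), Tesc (2.85 ± 0.85), a calcium-binding protein gene, and Apod, an apolipoprotein (2.75 ± 0.70). Stx11 was called in 11 of the 12 fits without 1 library, Cd34 in 9 and the other 5 in 2 to 4. The 10 smallest included Lims2 (-6.09 ± 1.38), Gal3st1, which makes the myelin lipid sulfatide (-5.89 ± 1.16), Zfp488, a transcription factor of oligodendrocytes (-5.63 ± 1.11), Sytl5, a Rab27 effector (-4.69 ± 1.21), and Pcdh15, a protocadherin (-4.05 ± 0.58). Gal3st1 had 0.147, 0.174 and 0.162 CPM in CKO neurospheres and 2.24, 16.04 and 13.3 CPM in control neurospheres, with 0.965, 0.916 and 1.64 CPM in CKO brains and 0.433, 1.86 and 1.34 CPM in control brains. Its neurosphere groups were apart, with control neurosphere 1 the lowest control, and its brain groups overlapped. Pagr1a had the largest difference at 9.56, but its groups overlapped in both tissues and its call held in 3 of the 12 fits, so its value is uncertain.

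The number of called genes depended on single libraries. Without control neurosphere 1, 1877 were higher and 2126 lower, and without CKO neurosphere 1, 957 and 1350. Without CKO neurosphere 2 the counts were 548 and 487, without CKO neurosphere 3 they were 907 and 739, without control neurosphere 2 they were 580 and 467, and without control neurosphere 3 they were 535 and 436. Without CKO brains 1, 2 and 3 in turn they were 837 and 632, 498 and 379, and 477 and 369, and without control brains 1, 2 and 3 they were 511 and 406, 654 and 476, and 550 and 374. Of the 1040 higher and 873 lower genes, 967 and 868 were called in the same direction without control neurosphere 1, and 467 and 367 without CKO brain 3. Higher calls made up 54.4% of all calls with TMM factors, 48.4% with RLE size factors and 37.3% with library size alone (705 higher and 1183 lower). Each of the 88 named genes with a called difference kept its sign in every setting in which it was tested.

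**Figure D5:**
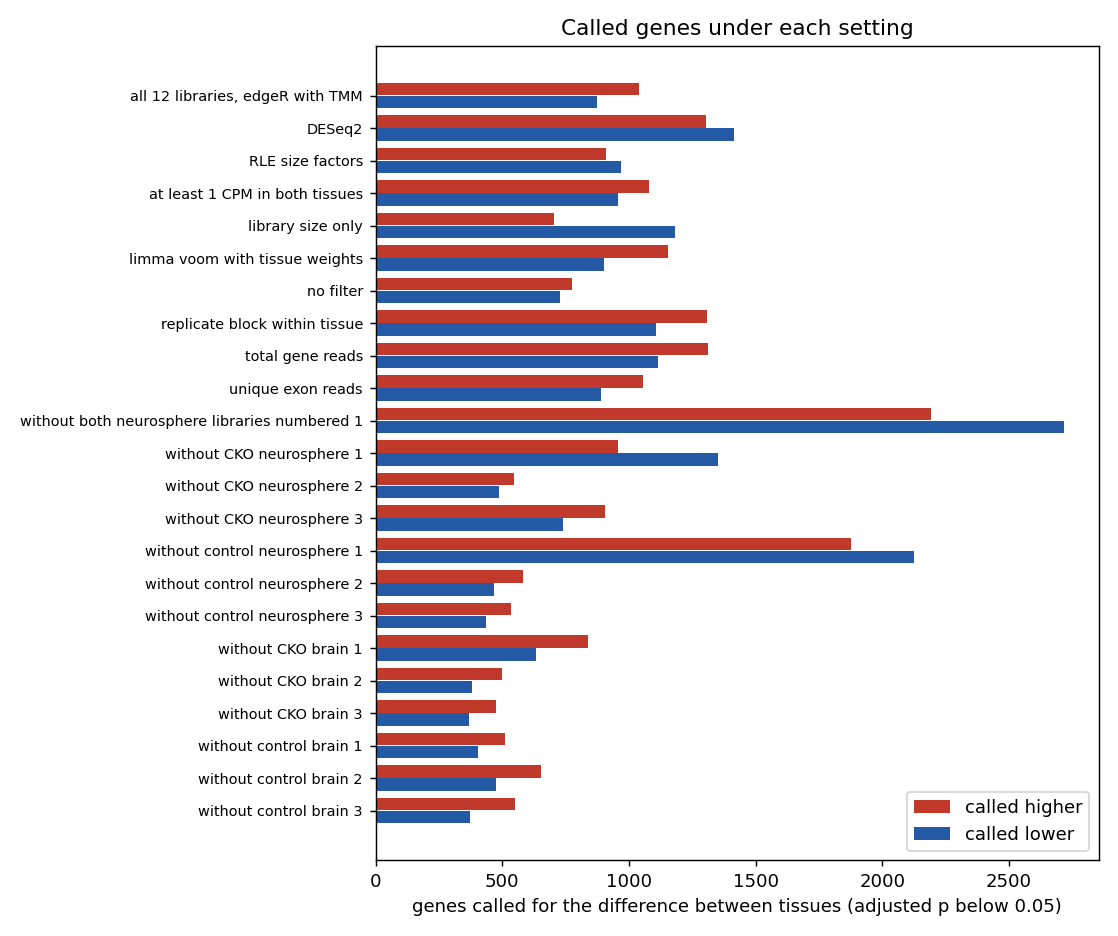
Number of genes with a called difference (horizontal axis; red higher, blue lower) under each setting of the test and without each library in turn. The bars are longest without control neurosphere 1 and without both neurosphere libraries numbered 1, and shortest without CKO brain 3.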

How the data were processed

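RNA from 12 libraries was sequenced and counted per gene by the submitters. Exon read counts are as deposited in 2 tables, 1 per tissue, per the file headers, and were joined by feature ID. GRCm38 and mm10 stand in the submitters' processing notes. The sources used here do not give the aligner, the strand setting or the annotation version, and coordinates in the tables were not used. Unique exon, total gene and intron reads served as checks, and 120 other per-sample columns were not used.

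Counts of the 14415 genes that passed filterByExpr were scaled by TMM and fitted with edgeR 4.0.16 in R 4.3.3 (quasi-likelihood, robust), with 4 group means. The difference is the CKO over control log2 fold change in neurospheres minus that in brain. Benjamini-Hochberg adjustment ran over all genes, a call is an adjusted p below 0.05, and ± gives the standard error. The test was run first on simulated counts. Alternatives used DESeq2 1.42.0, limma 3.58.1 voom, other scalings, filters and count columns, a replicate block, and each library left out.

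Members and gene lists were chosen with earlier results of these data known, and 606 of 631 listed symbols were tested. Named genes are Atp6ap2, the 10 largest and 10 smallest called differences at a mean of at least 1 CPM in each tissue, the 10 with the lowest p among opposite effects, among larger brain effects and among shared effects, and the 3 members of each list with the lowest p. Atg9a, Nbr1, Asns, Trib3, Herpud1, Slc6a9, Mthfd2, Slc7a1, Hmgcs1, Hk2, Gapdh, Sp5, Scarb2, Tpp1, Pdia3, Pdia6 and Abcc9 were named after their values were seen. Some genes that the rule chose are not reported here.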

Additional observations from a re-analysis of the deposited data

Results flagged for a closer look

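The genes here are drawn from the named genes. They had a called difference between the tissues and effects of opposite sign, each with an unadjusted p under 0.05, and no cause was tested. Over all genes 64 met these criteria, 31 with a higher and 33 with a lower difference. In 8 named genes, apart from Pagr1a below, the effect was positive in neurospheres and negative in brain. Their differences were 4.14 for Shisa3, 1.75 for Kitl, 1.35 for Fkbpl, 1.07 for Ssx2ip, 1.05 for Tomm5, 0.85 for Gpd2, 0.76 for Trak2 and 0.60 for Nin. In 7 named genes the effect was negative in neurospheres and positive in brain. Their differences were -4.19 for Slc7a3, -2.87 for C1qb, -1.83 for Rem2, -1.52 for Hrk, -1.43 for Ddit3_1, -1.29 for Vwf and -0.80 for Atg13. C1qb had at most 0.427 CPM in a neurosphere library, so its neurosphere effect rests on few reads.

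Pagr1a had a difference of 9.56, with 4.35 in neurospheres and -5.21 in brain. Its level was 6.60, 5.34 and 0.0812 CPM in CKO neurospheres and 0.160, 0.0853 and 0.302 CPM in control neurospheres, and 0, 0 and 0.329 CPM in CKO brains and 0, 0 and 13.1 CPM in control brains. Without control brain 3 its difference was 1.09.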

How the results depend on the processing

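Without both neurosphere libraries numbered 1, 2194 differences were higher and 2718 lower, and DESeq2 called 1413 lower. Without 1 library the counts ran from 477 to 1877 higher and 369 to 2126 lower. For the neurosphere effect, the fit of that tissue alone called 1958 higher and 1595 lower. For the brain effect, genes called higher numbered 29 with DESeq2, 23 with voom, 2 with total gene reads, 27 without both neurosphere libraries numbered 1, 33 in the fit of brain alone, and 0 to 5 without 1 library. Genes called lower there numbered 9 with DESeq2, 8 with voom, 1 with the replicate block, 18 without both neurosphere libraries numbered 1, 27 in brain alone, and 0 to 2 without 1 library.

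The numbers of the libraries were not shown to pair them, since the deviations of same-numbered libraries correlated by 0.24, -0.01 and 0.19 in neurospheres and 0.37, 0.14 and -0.04 in brain. With the replicate block within tissue 1309 differences were higher and 1107 lower. Of the 88 named genes with a called difference, 85 were still called with DESeq2, 67 with voom, 81 with library size alone and 80 with the block, and none changed sign. The median difference of all genes moved by less than 0.1 in every setting. Neurosphere libraries are deeper than brain libraries, and differences of genes near 1 CPM carry wide intervals.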
